A study of Zea mays with 18 samples.

Results

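RNA of the aleurone was compared with RNA of the starchy endosperm in maize (Zea mays) kernels of the genotype r1-m3. The comparison used 6 of the 18 libraries of the series, 3 of each compartment, chosen by their labelled genotype and compartment. The other 12 libraries hold the same compartments of R1-g, which the design text calls the wild type, and of R1-sc, with 3 libraries per group. All genotypes were in the W22 inbred background, and the field-grown plants were selfed. Every library came from endosperm at 19 days after pollination, when the compartments were cut out by laser, and 5 ng of captured RNA was amplified before paired-end libraries were made. The design text calls the 3 libraries of a group biological replicates. The labels do not say which plants or kernels each came from, so the p-values measure the spread between these samples.

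The aleurone is the outermost cell layer of the endosperm. It stays alive in the mature grain, stores oil and protein, and releases enzymes at germination, while the starchy endosperm inside it fills with starch and with prolamin storage proteins and dies as the grain matures. In maize, anthocyanin pigment of the kernel forms in the aleurone, and R1 encodes a transcription factor of the basic helix-loop-helix family that is needed to switch on the pigment enzymes. The gene models of these files carry Zm00001d identifiers with no names, and the reference table used here matched 0 of them. Features are therefore described by identifier, level and pattern, no role is given to any of them, and the tissue labels could not be checked against marker genes. The planned lists of pathway genes and cell type markers, 14 in all, matched 0 members and gave no count. As a check that needs no names, each compartment was set against the same compartment of the other genotypes. On the log2 scale of CPM, the counts of a feature per mega-count of library, r1-m3 aleurone replicates 1 and 2 correlated at 0.569 to 0.619 with the 6 aleurone libraries of R1-g and R1-sc, and at 0.364 to 0.426 with their 6 starchy endosperm libraries. The r1-m3 starchy endosperm libraries correlated at 0.717 to 0.795 with the other starchy endosperm libraries and at 0.366 to 0.397 with the other aleurone libraries. These are Pearson correlations across features, which share library depth and amplification, and they place each library with its labelled compartment.

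Counts on annotated features came, in mega-counts (M), to 14.9, 15.2 and 20.4 M in aleurone replicates 1 to 3 and to 16.1, 16.2 and 17.5 M in starchy endosperm replicates 1 to 3. Of these, Zm00001d gene models took 66.6%, 59.4% and 62.9% in the aleurone, against 75.6%, 72.3% and 71.6% in the starchy endosperm, so the compartments did not overlap. Organelle features took 20.9%, 26.4% and 24.1% in the aleurone against 10.1%, 12.003% and 11.6% in the starchy endosperm. For both shares a two-sided exact permutation test gave p = 0.1, the smallest value that 3 against 3 libraries allow. Of the 44146 Zm00001d gene models, 22253 had no count in any of the 6 libraries, and 17676 passed the filter on low counts and were tested. The libraries carry no molecular identifiers and were amplified, so reads do not count molecules one by one, and the floors below cover counting error only.

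Aleurone replicate 3 stood apart from the other libraries. Its counts lay close to a weighted sum of the other aleurone libraries, 0.580 times replicate 1 plus 0.786 times replicate 2. Within 20% of that sum lay 91.3% of 10461 features with at least 200 counts in replicates 1 and 2 together. For the other 17 libraries, each set against the best sum of its own group, the share was 9.61% to 29.1%. Replicate 3 held counts for 488 of the 488 features that reached 200 counts in one of replicates 1 and 2 and were at 0 in the other. It correlated with replicates 1 and 2 at 0.868 and 0.889, while replicates 1 and 2 correlated with each other at 0.642 and the starchy endosperm libraries among themselves at 0.752 to 0.789. The files do not say how this library was made. If it is not independent of replicates 1 and 2, fits that hold it understate the spread of the aleurone. Their p-values are then too small and their calls too many. The fits below include replicate 3 unless a result is marked as made without it. Means ± SD of the aleurone use replicates 1 and 2 (n = 2).

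**Figure D1:**
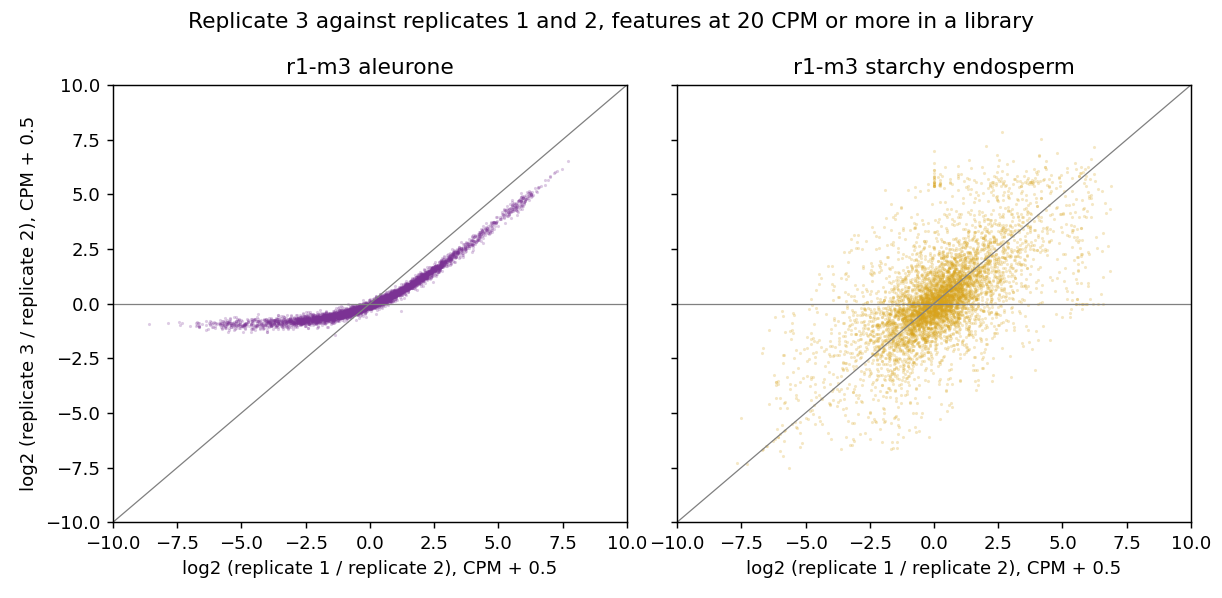
Log2 ratio of replicate 3 to replicate 2 (vertical axis) against that of replicate 1 to replicate 2 (horizontal axis), from CPM plus a pseudocount, for Zm00001d features at 20 CPM or more in any library of that compartment. Each point is a feature; grey lines mark replicate 3 equal to replicate 1 (diagonal) and to replicate 2 (horizontal). In the aleurone the points follow a narrow curve between the lines, and in the starchy endosperm they scatter widely.

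The most visible difference between the compartments was how counts were spread over gene models. In the starchy endosperm, 11, 13 and 16 features held 50% of the Zm00001d counts in replicates 1 to 3. In the aleurone, 1051, 979 and 1123 features were needed for the same share. The 20 most abundant features of each library took 56.3%, 54.9% and 52.2% of Zm00001d counts in the starchy endosperm and 9.96%, 10.5% and 10.1% in the aleurone. The groups lay far apart on both measures, and the exact permutation test gave p = 0.1 with or without aleurone replicate 3, the smallest value either design allows. The same separation was seen in the other genotypes, where 50% of the counts lay in 8 to 13 features of the starchy endosperm libraries and in 614 to 872 features of the aleurone libraries. In bulk samples such as these, fewer cells of a type and less RNA per cell cannot be told apart.

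**Figure D2:**
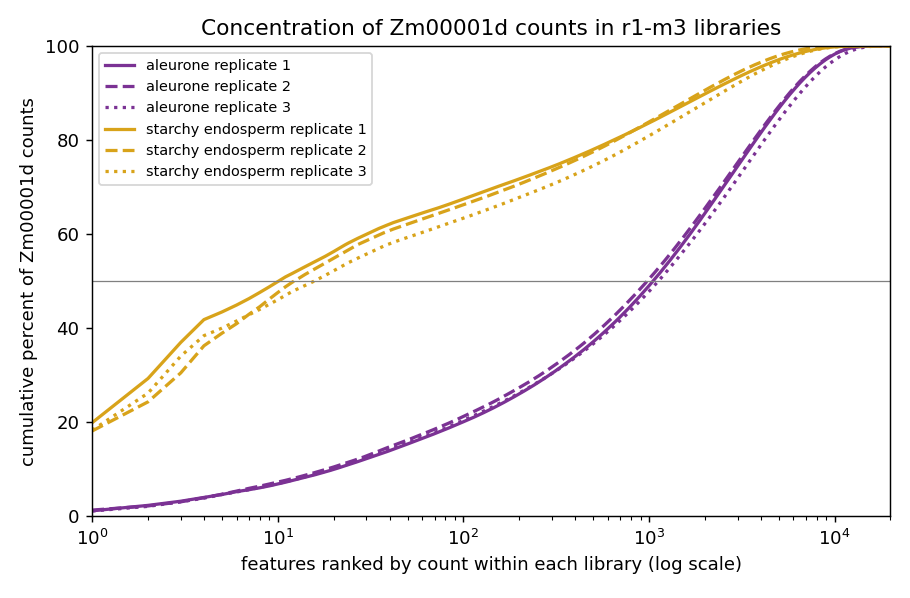
Cumulative percent of Zm00001d counts (vertical axis) against the rank of features by count within each library (horizontal log axis), 1 line per r1-m3 library. The starchy endosperm lines cross 50% (grey line) at 11 to 16 features and the aleurone lines at 979 to 1123 features.

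More gene models were detected in the aleurone of r1-m3. At least 1 count was found for 16511, 16318 and 18599 Zm00001d features in aleurone replicates 1 to 3 and for 13885, 11665 and 13836 in the starchy endosperm. Aleurone replicate 3, the deepest library, had the most and starchy endosperm replicate 2 the fewest. When every library was thinned to 9031897 Zm00001d counts, 16447, 16318 and 18335 features remained in the aleurone, against 13641, 11487 and 13581 in the starchy endosperm. When the libraries were instead thinned to equal counts outside their own 20 most abundant features, the numbers were 16149, 16020 and 17997 against 13883, 11665 and 13740. The aleurone libraries stayed above all starchy endosperm libraries under both kinds of thinning. In the other genotypes the compartments overlapped. R1-g had 13511, 14871 and 13684 features detected in the aleurone against 14528, 15750 and 13421 in the starchy endosperm, with both the highest and the lowest number in the starchy endosperm. R1-sc had 13816, 12949 and 13222 against 13221, 11375 and 13039. Whether the genotypes differ in this measure was not tested.

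The most abundant feature of the starchy endosperm was Zm00001d020592. It reached 214487, 179567 and 170476 CPM in starchy endosperm replicates 1 to 3, or 188177 ± 23234 (SD, n = 3), and 3249, 3138 and 3028 CPM in aleurone replicates 1 to 3. Every starchy endosperm library was far above every aleurone library, and the log2 fold change of aleurone over starchy endosperm was -5.91 ± 0.32 (SE; edgeR adjusted p = 2.98e-12). Zm00001d035760 stood at 101356, 61367 and 73386 CPM in the starchy endosperm and at 4706, 3673 and 3890 CPM in the aleurone. This feature was the second most abundant in the starchy endosperm and the third in the aleurone, and it was lower in the aleurone by a log2 fold change of -4.27 ± 0.29 (edgeR adjusted p = 1.90e-10). Zm00001d005793 stood at 82516, 57131 and 73180 CPM in the starchy endosperm against 1625, 1036 and 1209 CPM in the aleurone, a log2 fold change of -5.78 ± 0.32 (edgeR adjusted p = 3.34e-12). Without aleurone replicate 3 the edgeR adjusted p of these features was 6.17e-11 to 2.29e-09. All of the 20 most abundant starchy endosperm features were lower in the aleurone, by 7.28-fold to 124-fold in mean CPM. All 20 were called, 19 of them also without aleurone replicate 3. These features were picked by their starchy endosperm level in the same libraries, which favours a lower aleurone value. Of the 4419 tested features of highest mean level, 8.28% were called lower. The 20 were called lower in R1-g and in R1-sc as well, 20 of 20 in each, beside 5.01% and 6.01% of all tested features. They still made up 4.03%, 3.66% and 3.81% of the Zm00001d counts of the r1-m3 aleurone libraries, and 3.66% to 4.56% of those of the other aleurone libraries. Of the 20, 17 were among the 20 most abundant starchy endosperm features in all 3 genotypes.

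In the aleurone the most abundant feature was Zm00001d024302, with 3606, 5511 and 4336 CPM in replicates 1 to 3. In the starchy endosperm it stood at 19.9, 1.18 and 16.7 CPM. The compartments lay well apart, although starchy endosperm replicate 2 was below replicates 1 and 3 by over 10-fold. The log2 fold change was 8.47 ± 1.47 (edgeR adjusted p = 0.00233, and 0.00958 without aleurone replicate 3). Zm00001d008620 had 4718, 3668 and 3795 CPM in the aleurone and 495, 155 and 241 CPM in the starchy endosperm, a log2 fold change of 3.77 ± 0.91 (edgeR adjusted p = 0.0160). Its groups did not overlap, but the edgeR adjusted p was 0.0550 without aleurone replicate 3 and 0.0532 to 0.0920 without aleurone replicate 1, starchy endosperm replicate 2 or starchy endosperm replicate 3. Of the 20 most abundant aleurone features, 12 were called higher in the aleurone, 4 were called lower and 4 were not called. Without aleurone replicate 3 the calls were 9 higher and 4 lower. Over all tested features, 5.7% were called higher and 4.22% lower in the fit with that library. The 20 aleurone features too were picked by level in the same libraries. The overlap of the most abundant features of the compartments was 4 of 20.

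Across all tested features, 9.92% were called at an edgeR adjusted p under 0.05, with 5.7% higher in the aleurone and 4.22% lower. Among the 17676 Zm00001d features, 1016 were higher and 727 lower in the aleurone. Without aleurone replicate 3 the shares of all tested features were 3.03% higher and 1.58% lower, and the Zm00001d calls were 573 higher and 290 lower. Together they were 4.6% of all tested features. All 863 of these Zm00001d calls were among the 1743 calls made with the library. Leaving out any other r1-m3 library gave 956 to 1104 calls. All of these fits still held aleurone replicate 3, so they are not equivalent to the fit without it. Aleurone replicates 1 and 2 both lay above all 3 starchy endosperm libraries for 1011 of the 1016 features called higher, and for 29.1% of all tested features. They both lay below all 3 for 713 of the 727 features called lower, and for 16.5% of all tested features. The median log2 fold change of the tested Zm00001d features was 0.64, not 0, and 58.3% of the Zm00001d calls were higher in the aleurone. The split depended on the scaling: with library totals in place of the trimmed mean of M-values (TMM), 82.0% of calls were higher and the median was 1.72, and with the median set to 0 the share was 41.8%. Changes below are on the TMM scale.

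**Figure D3:**
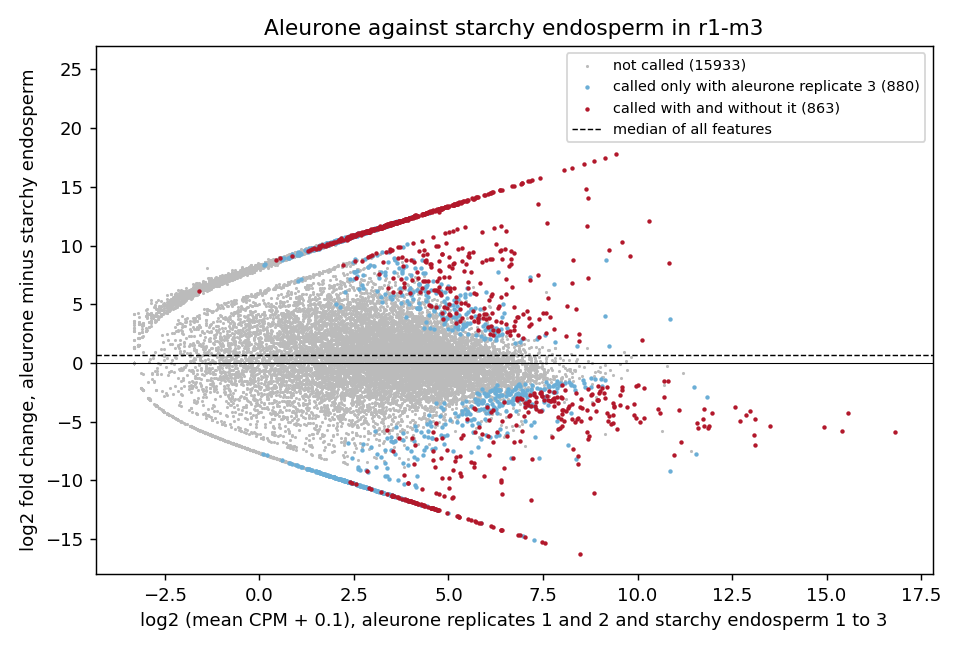
Log2 fold change of aleurone over starchy endosperm (vertical axis) against log2 of mean CPM plus 0.1 (horizontal axis) for 17676 Zm00001d features, with 863 features called with and without aleurone replicate 3 in red and 880 called only with it in blue. The dashed line is the median of 0.64, and the rows of points along the upper and lower edges are features with no or few counts in 1 compartment, whose fitted values depend on the prior count.

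Many of the calls were features seen in one compartment only. Of the 1016 features called higher, 609 had no count in any starchy endosperm library. Of the 727 called lower, 265 had no count in aleurone replicates 1 and 2, and 251 of these had none in replicate 3 either. Such features passed the low-count filter through the compartment where they are high or through the other genotypes. The shares of all tested features with no count in a compartment were not computed. With features at 0 set to a floor of 3 counts over the group, the median log2 ratio of mean CPM was 7.54 for those called higher, -6.004 for those called lower and 0.70 for all Zm00001d features with a ratio. By the same measure 912 of the features called higher and 491 of those called lower differed by more than 16-fold. Of all 17334 Zm00001d features with a ratio, 4943 differed by more than 16-fold in either direction. Among the calls made with and without aleurone replicate 3 the medians were 8.36 and -5.80. Of these calls, 528 of 573 higher and 203 of 290 lower differed by more than 16-fold.

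The features called higher and lower differed in level. When the tested features were divided by mean log2 CPM into 4 groups of 4419, the group of lowest level held 57 calls higher and 7 lower, and the second 645 and 171. The third held 180 and 183, and the group of highest level held 134 higher and 366 lower. Calls higher in the aleurone were thus most frequent at low to middle levels and calls lower at the highest level. The same order held among the calls made with and without aleurone replicate 3. The median log2 fold change of all tested features fell across the 4 groups as well, from 4.20 and 1.98 to 0.39 and -0.39. The order was therefore not particular to the called features. Together the features called higher took 23.3%, 25.4% and 24.4% of the Zm00001d counts in aleurone replicates 1 to 3 and 0.469%, 0.356% and 0.536% in the starchy endosperm. The features called lower took 72.1%, 71.0% and 68.1% of the starchy endosperm counts and 8.31%, 7.86% and 8.04% of the aleurone counts. These sums describe features that the same values selected.

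Among the features with the largest changes, Zm00001d024303 had 1548, 1895 and 1641 CPM in aleurone replicates 1 to 3 and no count in any starchy endosperm library. Its mean of 1722 ± 245 CPM in aleurone replicates 1 and 2 was at least 20983-fold higher than the floor of the starchy endosperm (edgeR adjusted p = 2.51e-10). Zm00001d047261 had 1331, 1480 and 1327 CPM in the aleurone and likewise no count in the starchy endosperm, which is at least 17125-fold higher (edgeR adjusted p = 0.000511). In the other direction, Zm00001d051288 was at 0 in all aleurone libraries and had 752, 367 and 669 CPM in starchy endosperm replicates 1 to 3, at least 9103-fold lower in the aleurone (edgeR adjusted p = 2.51e-10). It was also at 0 in all 6 aleurone libraries of R1-g and R1-sc. Zm00001d010031 was at 0 in all aleurone libraries of the 3 genotypes. It had 307, 374 and 263 CPM in the r1-m3 starchy endosperm, at least 4805-fold lower in the aleurone (edgeR adjusted p = 1.62e-09). Without aleurone replicate 3 the edgeR adjusted p of these features was 8.61e-10 to 0.00597, the largest for Zm00001d047261. The rule for naming took these from 461 features higher and 274 lower in the aleurone that were called with and without aleurone replicate 3, did not overlap and reached 20 CPM.

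**Figure D4:**
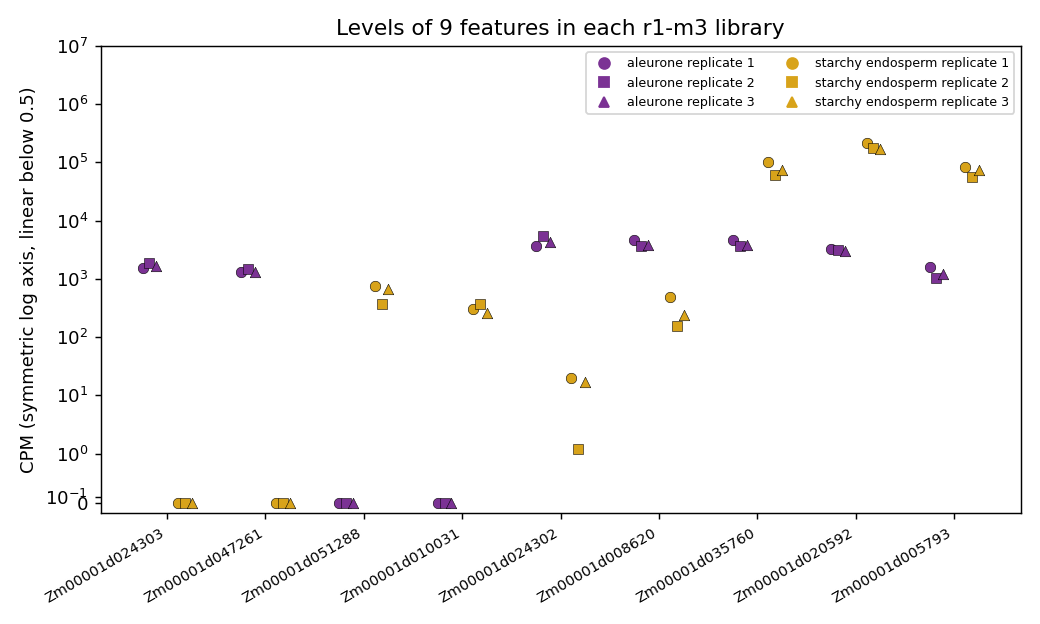
CPM (symmetric log axis, linear below 0.5) of 9 features in each r1-m3 library, aleurone in purple and starchy endosperm in gold, with a symbol for each replicate. The 4 features on the left are at 0 in every library of one compartment, and Zm00001d020592 reaches 170476 to 214487 CPM in the starchy endosperm.

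Features at 20 CPM or more in both aleurone replicates 1 and 2 and at 0 in all 3 starchy endosperm libraries numbered 175, with a median of 59.1 CPM. In the starchy endosperm libraries of R1-g and R1-sc, 79 of these were also at 0 in all 6, 120 stayed under 1 CPM in all 6, and 3 reached 20 CPM in at least 1. In their aleurone libraries, 73 of the 175 reached 20 CPM in all 6 and 171 in at least 1. In the other direction, 49 features reached 20 CPM in all 3 starchy endosperm libraries and were at 0 in aleurone replicates 1 and 2, and 43 of them were at 0 in replicate 3. Of these 49, 27 were at 0 in all 6 aleurone libraries of the other genotypes and 33 stayed under 1 CPM in all 6. In the starchy endosperm of the other genotypes, 29 of the 49 reached 20 CPM in all 6 libraries and 49 in at least 1. In the opposite compartment of the other genotypes, 45.1% of the 175 and 55.1% of the 49 were at 0 in all 6 libraries. There, 3 of the 175 and 2 of the 49 reached 20 CPM in at least 1 library. The same shares over all tested features were not computed, so these counts only describe the features selected in r1-m3.

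Whether the compartment difference of r1-m3 was that of the other genotypes was first described by the direction of its calls. In R1-g 9.9% of all tested features were called between the compartments, with 4.88% higher in the aleurone and 5.01% lower. In R1-sc the share was 14.3%, with 8.3% higher and 6.01% lower. Of the 1016 features called higher in r1-m3 aleurone, 988 were also above 0 in R1-g, or 97.2%, where 54.6% of all tested Zm00001d features were. In R1-sc the number was 991, or 97.5%, beside 56.7% of all tested. Of the 727 called lower, 710 were below 0 in R1-g (97.7%, beside 43.5% of all) and 701 in R1-sc (96.4%, beside 40.0% of all). The shares over all features are not matched for level. Calls higher were most frequent at low to middle levels, where the median log2 fold change of all features in r1-m3 was above 0. Calls lower were most frequent at the highest level, where it was below 0. How much of the gap to these shares follows from level was not tested. Features called in r1-m3 and called in the same direction in R1-g numbered 576 higher and 478 lower. The 576 are 56.7% of the calls higher in r1-m3 and 67.2% of those in R1-g, and the 478 are 65.7% and 54.8% of the calls lower. With R1-sc the shared calls were 717 higher (70.6% of r1-m3, 48.5% of R1-sc) and 472 lower (64.9% and 44.7%). All 3 genotypes shared 516 calls higher and 383 lower. A single feature was called in opposite directions, in r1-m3 and R1-sc. Of the 573 features called higher with and without aleurone replicate 3, 570 were above 0 in R1-g and 570 in R1-sc. Calls in the same direction numbered 435 and 481 of these. Of the 290 called lower in both fits, 290 were below 0 in R1-g and 287 in R1-sc, with 253 and 247 called. Across the 17676 features the log2 fold changes of r1-m3 correlated at a Pearson r of 0.621 with those of R1-g and 0.615 with those of R1-sc, and those of R1-g and R1-sc with each other at 0.626. These comparisons share no library, but they share 1 fit and its estimate of the spread.

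A set of features chosen without any r1-m3 library was then read in r1-m3. A fit of the 12 R1-g and R1-sc libraries gave 493 features called higher and 365 called lower in the aleurone of both genotypes. In fits of the r1-m3 libraries alone, 480 of the 493 were tested, 478 were higher in the aleurone and 395 were called, or 82.3%, beside 17.4% of all Zm00001d features in that fit called higher. Without aleurone replicate 3, 479 of 480 were higher and 290 were called, or 60.4%, beside 4.21% of all. Of the 365 chosen as lower, 349 were tested in the 6 libraries, 344 were lower and 299 were called, or 85.7%, beside 9.91% of all. Without aleurone replicate 3, 355 of 360 were lower and 234 were called, or 65.0%, beside 3.77% of all. None of the 493 or 365 was called in the opposite direction in either fit. Zeros limit this reading. Of the 493, 310 to 363 were at 0 in each r1-m3 starchy endosperm library. Of the 365, 116 to 147 were at 0 in each r1-m3 aleurone library. Features at 0 in all libraries of a compartment pass the low-count filter of these fits only through the other compartment, which fixes their direction. The features of the higher set took 17.1%, 19.2% and 18.2% of the Zm00001d counts in r1-m3 aleurone replicates 1 to 3 and 0.323%, 0.249% and 0.380% in the starchy endosperm. Those of the lower set took 66.5%, 64.8% and 62.3% in the starchy endosperm and 6.34%, 6.05% and 6.14% in the aleurone.

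Features called between the compartments in r1-m3 and in neither other genotype numbered 238 higher and 160 lower. Of these, 201 and 133 had the same direction in both other genotypes, beside 41.2% and 28.3% of all tested features, shares not matched for level. Of the 398, 81 were also called without aleurone replicate 3. Of the 398, 1 was called when the difference between genotypes was itself tested, so the calls made in r1-m3 alone were not shown to differ from the other genotypes.

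The test of the difference between genotypes, an interaction contrast, called 24 features against R1-g (0.133% of all tested) and 1 against R1-sc (0.00555%). Against R1-g, 20 were called higher (0.111%), meaning that the ratio of aleurone to starchy endosperm was higher in r1-m3, and 4 lower (0.0222%). Of the 20, 11 were called lower in the aleurone in both genotypes, so that their difference was smaller in size in r1-m3. The r1-m3 calls of Zm00001d001953, Zm00001d009837, Zm00001d012221 and Zm00001d017121 among them were lost without aleurone replicate 3 (edgeR adjusted p = 0.0548 to 0.155). Without aleurone replicate 3, 15 of the 24 (0.0785% of all tested) and the 1 (0.00523%) were called. Leaving out any 1 r1-m3 library gave 10 to 20 calls against R1-g and 1 to 7 against R1-sc. At an unadjusted p under 0.05, 1930 Zm00001d features differed from R1-g and 2108 from R1-sc, and DESeq2 called 935 and 1190 at an adjusted p under 0.05. The number of interactions called therefore depended on the tool by over 10-fold. No feature called between the compartments by edgeR was called in the opposite direction by DESeq2, but both tools read the same counts.

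In 13 of the 20 features called higher against R1-g, all 3 R1-g aleurone libraries were under 1 CPM. In the 13, r1-m3 aleurone replicates 1 and 2 both lay above the R1-g aleurone libraries, with means of 2.19 to 40.5 CPM. The 20 were selected for a higher ratio in r1-m3, which favours this pattern. Its share over all tested features was not computed. Zeros between aleurone replicates were more frequent in the other genotypes. Of features at 10 CPM in either library of a pair, 9.73% to 12.001% had no count in the other in R1-g. The share was 11.96% to 14.7% in R1-sc and 4.02% between r1-m3 replicates 1 and 2. Whether such zeros account for these aleurone differences, that of Zm00001d045391 included, was not tested. Zm00001d045391 was the feature called against R1-sc, and it was called against R1-g too. It had 1.77, 2.61 and 2.49 CPM in r1-m3 aleurone replicates 1 to 3, from 43, 56 and 82 counts, and 0 in all 6 aleurone libraries of R1-g and R1-sc. In the starchy endosperm it stood at 679, 456 and 574 CPM in r1-m3, 425, 499 and 442 CPM in R1-g, and 313, 399.9 and 287 CPM in R1-sc. The starchy endosperm was thus far above the aleurone in every genotype, and aleurone counts were found in r1-m3 alone. The fitted interaction was 7.94 against R1-g (edgeR adjusted p = 6.42e-05) and 7.49 against R1-sc (edgeR adjusted p = 0.000387), sizes that depend on the prior count because the other aleurone libraries are at 0. The summed share of the 20 most abundant starchy endosperm features, given above, was 3.66% to 4.03% of Zm00001d counts in r1-m3 aleurone and 3.66% to 4.49% in R1-g aleurone. The part of starchy endosperm RNA in these aleurone values was not tested.

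Zm00001d001953 showed the same kind of difference against R1-g. It had 34.7, 8.01 and 17.8 CPM in r1-m3 aleurone and 159, 267 and 109.9 CPM in r1-m3 starchy endosperm, while R1-g had 0 in all aleurone libraries and 131, 116 and 186 CPM in the starchy endosperm. In R1-sc it had 34.7, 5.47 and 5.18 CPM in the aleurone, within the range of r1-m3 or just under it. The fitted interaction against R1-g was 11.09 (edgeR adjusted p = 0.000209). Zm00001d032508 had 64.9, 16.02 and 38.0 CPM in r1-m3 aleurone and 5.86, 45.1 and 17.7 CPM in r1-m3 starchy endosperm, and these groups overlap. In R1-g it was at 0 in the aleurone and at 19.1, 53.4 and 23.9 CPM in the starchy endosperm. Its fitted interaction of 12.86 (edgeR adjusted p = 0.0238) lost the call when r1-m3 aleurone replicate 1 or any 1 of the 3 starchy endosperm libraries was left out, at 0.0518 to 0.0816. In R1-sc aleurone it stood at 0, 0 and 0.726 CPM, and the difference from R1-sc was not called (edgeR adjusted p = 0.149).

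The most abundant feature with a called interaction was Zm00001d005793, described above among the starchy endosperm features. Its r1-m3 aleurone values of 1625, 1036 and 1209 CPM lay above the 292, 370.1 and 420.4 CPM of R1-g aleurone, and below the 1641, 1982 and 2704 CPM of R1-sc aleurone. In the starchy endosperm r1-m3 and R1-sc overlapped, and R1-g stood at 102635, 88045 and 88592 CPM, above the r1-m3 values. The interaction was 2.23 ± 0.37 against R1-g (SE; edgeR adjusted p = 0.00585) and -0.62 ± 0.37 against R1-sc (edgeR adjusted p = 0.536).

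Of the remaining features called higher against R1-g, 5 had no count in r1-m3 starchy endosperm, and 4 of these were also called higher in the aleurone in R1-g. Zm00001d024303, named above for its aleurone level, was 1 of them. In R1-g it had 2077, 1765 and 1706 CPM in the aleurone and 2.39, 5.89 and 0.487 CPM in the starchy endosperm, so the genotypes had similar aleurone levels and differed at the low starchy endosperm level. In R1-sc starchy endosperm it was at 0 in all 3 libraries, as in r1-m3.

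Zm00001d026147 had the largest interaction called lower against R1-g. It stood at 277, 165 and 202 CPM in r1-m3 aleurone and at 312, 301 and 435 CPM in r1-m3 starchy endosperm, so every starchy endosperm library was above every aleurone library, but the difference was not called (log2 fold change -0.70 ± 0.69, edgeR adjusted p = 0.523). In R1-g it had 55.3, 7.04 and 66.9 CPM in the aleurone and no count in any starchy endosperm library. In R1-sc it had 385, 195 and 32.5 CPM in the aleurone and 242, 281 and 268 CPM in the starchy endosperm. R1-g was therefore the genotype that stood apart, and the fitted interaction was -13.20 against R1-g (edgeR adjusted p = 6.42e-05) and -0.34 ± 0.97 against R1-sc (edgeR adjusted p = 0.9999). Zm00001d033322 was at 0.164, 0 and 0 CPM in r1-m3 aleurone, from 4 counts in all, and at 181, 124 and 119.6 CPM in r1-m3 starchy endosperm. R1-g had 7.52, 0.828 and 28.3 CPM in the aleurone and 76.2, 76.6 and 43.7 CPM in the starchy endosperm. R1-sc had 6.13, 27.3 and 1.84 CPM in the aleurone and 112, 70.3 and 182 CPM in the starchy endosperm. Here r1-m3 had the lowest aleurone values. The interaction of Zm00001d033322 against R1-g, -8.77 (edgeR adjusted p = 0.0259), was not called without aleurone replicate 3, at 0.108. Against R1-sc it was -7.82 and not called (edgeR adjusted p = 0.102).

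**Figure D5:**
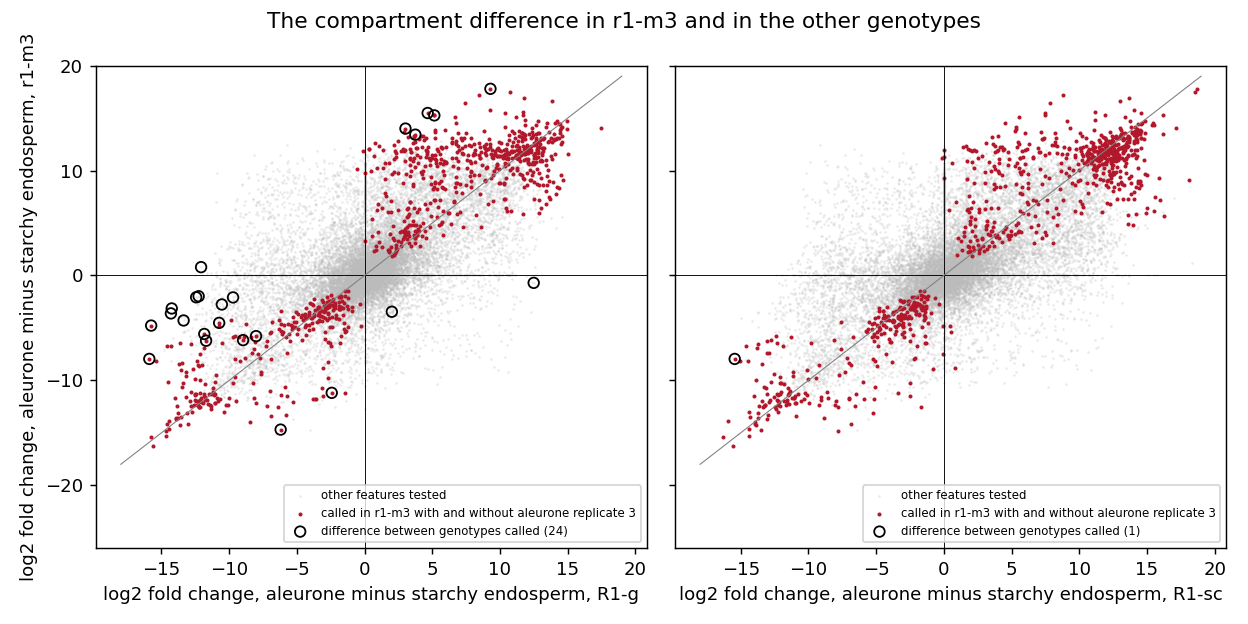
Log2 fold change of aleurone over starchy endosperm in r1-m3 (vertical axis) against that in R1-g (left) and in R1-sc (right) for 17676 Zm00001d features. Red points are the 863 features called in r1-m3 with and without aleurone replicate 3, circles the 24 and 1 features whose difference between genotypes was called, and the grey diagonal marks equal change.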

How the data were processed

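The deposited files hold whole-number read counts, 1 table per library, with 46430 features and 5 HTSeq totals that name no feature and were left out of library sizes and tests. The submitters' processing notes name HTSeq 0.11.2, HISAT2, Trimmomatic 0.39, SAMtools, FastQC and DESeq2, and the genome build B73 RefGen_v4. Per the labels' protocols, cDNA amplification used the Ovation RNA-Seq System V2, before NEBNext Ultra II library construction. Whether counting used strand is not given in the sources used here, so overlapping and antisense genes cannot be told apart. Of all reads in the r1-m3 tables, 46.8% to 51.4% matched more than 1 place and count for no feature, so values of near-identical genes are uncertain.

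Samples were grouped by labelled genotype and compartment. Counts of all 18 libraries entered 1 fit of 6 group means in edgeR 4.0.16 (R 4.3.3): filterByExpr kept 18028 features (19111 without aleurone replicate 3), TMM gave the scaling, and robust quasi-likelihood F tests were adjusted by Benjamini and Hochberg over all features tested in each contrast. SEs were derived from the fold change and its F statistic. CPM were computed from totals scaled by TMM, and correlations use a prior count of 2. Folds against a group at 0 use a floor of 3 counts over the group (aleurone replicates 1 and 2, or all 3 starchy endosperm libraries). The scripts were tested on simulated counts. Alternatives were DESeq2 1.42.0, its size factors, no TMM, other filters, Zm00001d features alone, the r1-m3 libraries alone, a test against 2-fold (glmTreat of edgeR), a replicate block and leaving out each r1-m3 library. The median centring, the thinning and the reading of features chosen in R1-g and R1-sc were added after seeing the data.

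For the largest changes, the 2 features in each direction were named from those called with and without aleurone replicate 3 whose compartments did not overlap (aleurone replicates 1 and 2 against all starchy endosperm libraries) and whose mean reached 20 CPM. Without these criteria, the 3 most abundant features per compartment were named, as were the 2 largest called interactions in each direction against R1-g and the 1 against R1-sc. The comparison, lists and rules were chosen with earlier results of these data known.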

Additional observations from a re-analysis of the deposited data

Results flagged for a closer look

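Differences between genotypes in the compartment contrast were called by interaction tests in edgeR. The log2 ratio of aleurone to starchy endosperm was called higher in r1-m3 than in R1-g for 20 features and lower for 4. Of the 20, 11 were called lower in the aleurone in both genotypes, so their difference was smaller in size in r1-m3. Some of these r1-m3 calls, listed above, were lost without aleurone replicate 3. Among those named, the fitted log2 interactions against R1-g were 12.86 for Zm00001d032508, 11.09 for Zm00001d001953, -13.20 for Zm00001d026147 and -8.77 for Zm00001d033322. Against R1-sc the value was 7.49 for Zm00001d045391. Zm00001d032508, Zm00001d001953 and Zm00001d045391 were at 0 in every R1-g aleurone library, and Zm00001d026147 was at 0 in every R1-g starchy endosperm library, so their fitted sizes depend on the prior count. Whether zeros between replicates, more frequent in R1-g aleurone as given above, account for the zeros in R1-g aleurone was not tested. The size for Zm00001d033322 rests on 4 counts in r1-m3 aleurone. Groups of 3 libraries were not screened for single outlying libraries.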

How the results depend on the processing

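No alternative called a feature in the opposite direction to its call between the r1-m3 compartments in the fit of all 18 libraries. All alternatives read the same counts, and features called only in an alternative were not compared in direction. Leaving out 1 r1-m3 library at a time gave 863 to 1104 calls between the compartments, 494 to 625 higher and 290 to 494 lower. Of these fits, only that with 863 calls was without aleurone replicate 3. The same gave 10 to 20 interaction calls against R1-g and 1 to 7 against R1-sc. DESeq2 made 4387 calls (2813 higher, 1574 lower) and, without aleurone replicate 3, 2985 (1836 and 1149). It made 4188 calls in R1-g and 5331 in R1-sc (3647 and 4684 in the fit without that library), and 935 and 1190 interaction calls (542 and 691). Library totals without TMM gave 1975 higher and 434 lower, and 163 lower without aleurone replicate 3, with 11 interactions against R1-g. The r1-m3 libraries alone gave 3855 calls (2455 and 1400), and 622 higher without aleurone replicate 3. Setting the median to 0 gave 1135 lower. With no filter on low counts there were 204 and 240 interaction calls, and with Zm00001d features alone 2 against R1-sc. Fitting the replicate number as a block gave 1599 calls and 37 and 17 interactions. It ended the call of Zm00001d047261 (edgeR adjusted p = 0.149). The numbers did not pair the libraries in r1-m3, where same-numbered deviations correlated at 0.00397, 0.00854 and 0.00535 in replicates 1 to 3. The Zm00001d share of counts differed by -10.2 percentage points, or by -2.31 with all reads of the tables as the denominator. Leaving out a library put the difference in features that hold 50% of the counts at 1002 to 1074. The causes of these changes were not tested.

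For Zm00001d033322 the interaction call was also lost without aleurone replicate 2 or starchy endosperm replicate 1 and without TMM, and for Zm00001d032508 without TMM and aleurone replicate 3, at an edgeR adjusted p of 0.0774. Apart from these, Zm00001d008620 and Zm00001d047261, as given above, the named features kept the call for which they were named under every alternative run. Other contrasts of these features were not followed through all alternatives. Among those are the interactions of Zm00001d005793, Zm00001d024303 and Zm00001d045391 against R1-g. Depth is among the limits on what 0 means: the floor of 3 counts over a group is 0.0655 CPM for aleurone replicates 1 and 2 and 0.0821 CPM for the starchy endosperm. Zeros also occurred above that floor. Of features at 10 CPM in either of aleurone replicates 1 and 2, 4.02% had no count in the other. Between r1-m3 starchy endosperm libraries the share was 3.45% to 6.25%. In the aleurone of R1-g and R1-sc the shares, given above, were higher. Folds against the floor therefore cover counting error only.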
